A study of Brachypodium distachyon with 20 samples.

Results

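The PIN and PILS genes of Brachypodium distachyon encode membrane carriers of the hormone auxin. Their transcripts were followed here through embryo development, in endosperm and in seed coat. The 9 genes were taken from a fixed list of identifiers, of 23749 genes in the expression table, and the choice used no threshold on their values. According to the gene tree of the study, 6 of them belong to the PIN family and 3 to the PILS family. The first 2 are PIN1a (Bradi1g45020.1) and PIN1b (Bradi3g59520.1), which pair together in that tree. The other PIN genes are known here by identifier only (Bradi4g26300.2, Bradi2g44987.1, Bradi2g48170.1 and Bradi2g52640.1), as are the PILS genes (Bradi2g61980.4, Bradi1g76490.5 and Bradi4g37450.3).

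PIN proteins carry auxin out of the cell. Many of them are placed on one side of the plasma membrane, so that cells with PIN proteins on the same side pass auxin in one direction through a tissue. In the Arabidopsis embryo this transport takes part in setting up the root pole and the cotyledons. PILS proteins have a similar predicted fold but reside in the endoplasmic reticulum, where in Arabidopsis they limit the auxin that reaches the nucleus.

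Expression was measured by RNA-seq in plants of the Bd21 ecotype, which served for all groups, without a mutant or a treatment. The 7 embryo groups were the two-cell and quadrant stage (TCQ), the preembryo (PEM), the transition stage (TRA), the early, middle and late leaf stages (LEE, LEM, LEL) and the mature embryo (MAT). A further stage that the study sampled between LEE and LEM is not among them, so the step from LEE to LEM spans it. The 3 other groups were early endosperm (EEN), taken at the time of the transition stage, and late endosperm (LEN) and seed coat (SEC), taken at the time of the late leaf stage. Flowers were emasculated and pollinated by hand, so that grains developed together. Each group had 2 libraries, each from a pool of dissected embryos or grains, and each p-value therefore measures the spread between these libraries.

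Values are log2 CPM, a log2 scale on which counts are set relative to the size of each library. Library totals in reads are unknown, so no counting error can be given. A gene's lowest value was often shared exactly by several libraries, which is the floor of the scale for that gene, and a group with both libraries at the floor is compared by its levels, without a fold. A level in a pool of tissue cannot tell fewer expressing cells from less RNA per cell. The embryo genes PLT1 and WOX5 were at their floor in all 6 endosperm and seed coat libraries, but WOX9 and FIL were not. WOX9 stood at 3.59% of its TRA level in EEN, and at 10.1% of its LEL level in LEN and 6.64% in SEC. FIL stood at 0.207%, 3.54% and 16.5% in the same order. In the 14 embryo libraries, 4 endosperm genes stood at 0.000811% to 0.272% of their level in EEN, highest in LEE (0.121% to 0.272%). In the same libraries 1 seed coat gene stood at 0.00190% to 0.215% of its level in SEC. These endosperm and seed coat genes were known from earlier results of the same libraries, so they are no independent measure of purity.

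All 9 genes differed among the 10 groups in the F-test of limma, a linear model fitted to all genes, at an adjusted p below 0.05, as 98.7% of the genes tested did. Bradi2g48170.1 and Bradi4g37450.3 passed the filter on low values (above 1 CPM in 2 libraries) through SEC alone and so had to differ. Among the 7 embryo stages 8 of 9 did, against 93.3% of all genes. The exception was Bradi4g37450.3 (adjusted p = 0.0722, limma). Without single libraries this count ran from 7 to 9. In each stage from TCQ to LEM 6 of the 9 genes exceeded 1 CPM in both libraries, and in LEL and MAT 7 did. In EEN 1 gene did (Bradi2g61980.4), in LEN 4 and in SEC 4. The 6 genes were the same from TCQ to LEE, while in LEM Bradi2g44987.1 stood in place of Bradi1g76490.5. The share of all genes above 1 CPM in each group was not computed.

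**Figure D1:**
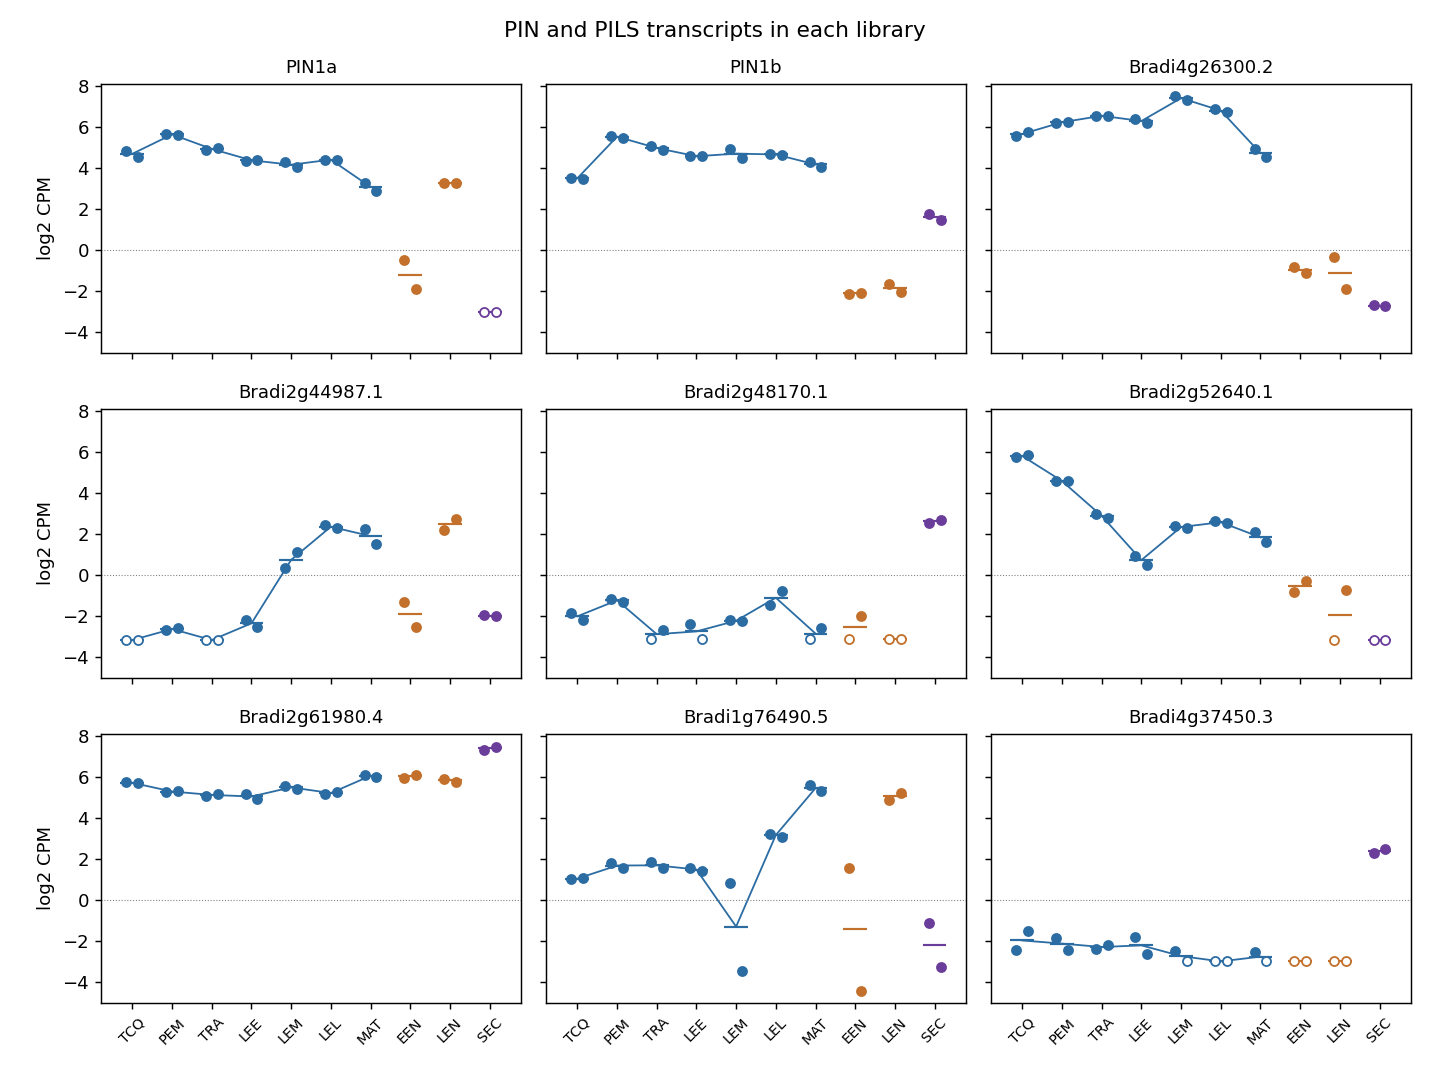
Log2 CPM of the 9 PIN and PILS genes in each of the 20 libraries (points), with group means (bars) and a line through the means of the embryo stages. Blue marks embryos, orange endosperm and purple seed coat. Open points are at the lowest value of the gene where at least 2 libraries share it, and the dotted line is 1 CPM. Bradi2g48170.1 and Bradi4g37450.3 stayed below 1 CPM in all 14 embryo libraries and were above it in both SEC libraries.

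PIN1a was highest in the preembryo. Its libraries read 4.83 and 4.55 log2 CPM in TCQ, 5.66 and 5.61 in PEM, 4.89 and 4.96 in TRA, and 4.35 and 4.39 in LEE. It then read 4.27 and 4.04 in LEM, 4.40 and 4.41 in LEL, and 3.26 and 2.89 in MAT. Both PEM libraries thus lay above all other libraries, and both MAT libraries below all other embryo libraries. From TCQ to PEM PIN1a rose 1.92-fold (0.94 ± 0.29 log2, SE, adjusted p = 0.0134, limma). This call was lost without TCQ replicate 2 (0.80, adjusted p = 0.0914), without PEM replicate 1 (0.92, adjusted p = 0.0617) and without PEM replicate 2 (0.97, adjusted p = 0.0505). From LEL to MAT PIN1a fell 2.51-fold (-1.33 ± 0.29 log2, adjusted p = 0.00131). The 4 steps in between did not pass the test, with differences from -0.71 to 0.25.

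Outside the embryo PIN1a was found mainly in the late endosperm. It read -0.50 and -1.89 log2 CPM in EEN and 3.24 and 3.27 in LEN, and both SEC libraries were at the floor of -2.99. The EEN and LEN libraries did not overlap, and LEN overlapped with the mature embryo. From EEN to LEN the transcript rose 21.9-fold (4.45 ± 0.29 log2, adjusted p = 3.47e-09). In LEN it stood at 45.2% of its level in LEL embryos (-1.15 ± 0.29 log2, adjusted p = 0.00234), and in EEN at 1.44% of its level in TRA embryos (-6.12 ± 0.29, adjusted p = 4.71e-11). Of the embryo genes measured beside it in LEN, WOX9 stood at 10.1% of its LEL level, FIL, a regulator of organ polarity, at 3.54% and PIN1b at 1.11%, while PLT1 and WOX5 were at their floor. YUC3 stood at 2.92% and SHR at 4.81%, but WOL, a cytokinin receptor, at 57.2% and LOG4, which activates cytokinin, at 361%. In LEL embryos WOX5 and LOG4 were themselves low, with means of 0.52 and 0.42 log2 CPM. The floor of WOX5 is thus 19.1% of its LEL level. In order of group means PIN1a ran PEM, TRA, TCQ, LEL, LEE, LEM, LEN, MAT, EEN and SEC. Of these neighbours, LEM and LEN, MAT and EEN, and EEN and SEC were told apart in limma, and the others were not. The error in this test is 1 value per gene, shared by all 10 groups, and not the spread of the 2 neighbours. PEM and TRA were not told apart, although their libraries did not overlap (SD 0.035 and 0.050). The EEN libraries of PIN1a had an SD of 0.98.

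PIN1b was lowest in the first embryo stage and highest in the preembryo. Its libraries read 3.52 and 3.47 log2 CPM in TCQ, 5.57 and 5.47 in PEM, 5.05 and 4.89 in TRA, and 4.56 and 4.58 in LEE. In LEM it read 4.92 and 4.47, in LEL 4.68 and 4.64, and in MAT 4.31 and 4.03. The TCQ libraries lay below and the PEM libraries above all other embryo libraries. From TCQ to PEM PIN1b rose 4.07-fold (2.02 ± 0.17 log2, adjusted p = 3.16e-07), and no alternative lost this call. It fell from PEM to TRA (-0.55 ± 0.17 log2, adjusted p = 0.0274) and from LEL to MAT (-0.49 ± 0.17 log2, adjusted p = 0.0293), both by less than 1.5-fold.

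Both of these smaller falls of PIN1b lay close to the threshold. The fall from PEM to TRA did not pass without any one of the 4 libraries of PEM and TRA (-0.47 to -0.63 log2, adjusted p from 0.0657 to 0.159). The fall from LEL to MAT was lost without either LEL library, at nearly the same size (-0.47 and -0.51 log2, adjusted p = 0.111 and 0.0758), without MAT replicate 2 (-0.35 log2, adjusted p = 0.212) and with library medians set equal. That scaling moved the step by 0.25 log2 and left a difference of -0.24 (adjusted p = 0.262).

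Outside the embryo PIN1b was found mainly in the seed coat. It read -2.14 and -2.08 log2 CPM in EEN, -1.64 and -2.03 in LEN, and 1.78 and 1.48 in SEC. All 4 endosperm libraries were thus below 1 CPM, and both seed coat libraries above it. SEC exceeded LEN 11.1-fold (3.47 ± 0.17 log2, adjusted p = 5.04e-11) and reached 12.3% of the LEL embryo level (-3.02 ± 0.17 log2, adjusted p = 2.81e-10). In the same SEC libraries the embryo genes WOX9 and FIL stood at 6.64% and 16.5% of their LEL levels, and PLT1 and WOX5 were at their floor. EEN and LEN of PIN1b differed by 0.27 ± 0.17 log2, which did not pass (adjusted p = 0.194). Its order of means was PEM, TRA, LEM, LEL, LEE, MAT, TCQ, SEC, LEN and EEN. PEM and TRA, MAT and TCQ, TCQ and SEC, and SEC and LEN were told apart as neighbours.

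The difference of both paralogs within a library does not depend on how libraries were scaled. Since CPM values are not corrected for transcript length, only the change of this difference is read. PIN1a minus PIN1b was 1.19 ± 0.16 log2 (SD, n = 2) in TCQ, 0.11 ± 0.04 in PEM, -0.04 ± 0.16 in TRA and -0.20 ± 0.01 in LEE. It was -0.54 ± 0.15 in LEM, -0.25 ± 0.03 in LEL and -1.09 ± 0.06 in MAT. Both TCQ libraries lay above all 12 later embryo libraries. The mean difference fell from 1.19 in TCQ to -0.34 in the later stages, a shift of 1.53 log2. In a two-sided exact permutation test this gave p = 0.011, the smallest value that 91 arrangements allow. The test was chosen with earlier results of these data known, so this p is no independent evidence. This test takes the 14 libraries as exchangeable, although they come in 7 stages of 2, and in the same exact test MAT against the other embryo libraries gave p = 0.022. With stage means as units, added after the data were examined, the exact test gave p = 0.143, which is the smallest that 7 stages allow and cannot pass. With 1 TCQ library left out, the shift was 1.42 (without replicate 1) or 1.64 (without replicate 2), and the exact test could not go below p = 0.0769.

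**Figure D2:**
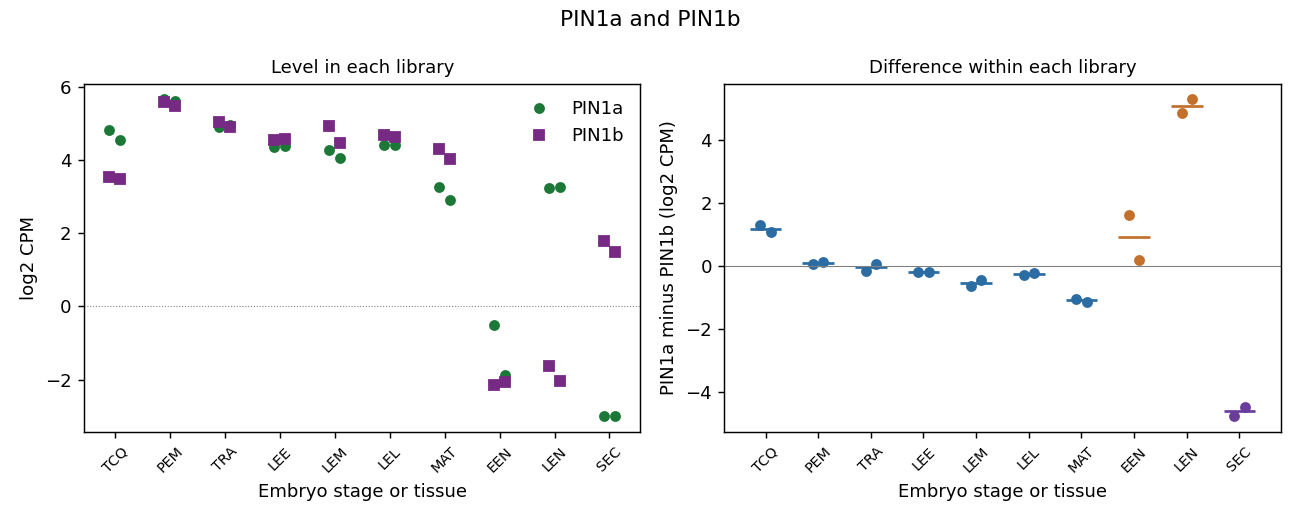
Left, log2 CPM of PIN1a (circles) and PIN1b (squares) in each library by embryo stage or tissue. Right, PIN1a minus PIN1b in log2 within each library (points) with group means (bars), which ran from 1.19 in TCQ to -1.09 in MAT, and stood at 5.10 in LEN and -4.63 in SEC. Both SEC values of PIN1a are at its floor.

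In the other tissues the difference was 0.91 ± 1.02 log2 in EEN and 5.10 ± 0.30 in LEN, and in SEC PIN1a was at its floor while PIN1b was above 1 CPM. Another contrast of tissue and time, added after the data were examined, asked whether the change from EEN to LEN differed from that of embryos of the same times (TRA to LEL). It passed for PIN1a (4.97 ± 0.41 log2, adjusted p = 8.79e-08) and did not pass for PIN1b (0.58 ± 0.25 log2, adjusted p = 0.0512), and the difference between these results was not tested. Of the 9 genes 3 passed (62.5% of all genes), 2 with a larger change in endosperm (31.3%) and 1 with a smaller one (31.3%).

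Bradi4g26300.2, which branches just outside PIN1a and PIN1b, was an embryo transcript throughout. It read 5.57 and 5.73 log2 CPM in TCQ, 6.21 and 6.24 in PEM, 6.54 and 6.53 in TRA, and 6.40 and 6.17 in LEE. It then read 7.51 and 7.29 in LEM, 6.85 and 6.73 in LEL, and 4.91 and 4.54 in MAT. The LEM libraries were above, and the MAT libraries below, all other embryo libraries. From LEE to LEM the transcript rose 2.16-fold (1.11 ± 0.32 log2, adjusted p = 0.00822). The call was lost without LEE replicate 2 (1.00, adjusted p = 0.063) and without LEM replicate 1 (1.00, adjusted p = 0.0509). From LEL to MAT it fell 4.20-fold (-2.07 ± 0.32 log2, adjusted p = 5.7e-05), a call that was kept in all alternatives.

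Bradi4g26300.2 was below 1 CPM in all 6 libraries outside the embryo. It read -0.81 and -1.09 log2 CPM in EEN, -0.36 and -1.90 in LEN, and -2.69 and -2.74 in SEC. Against embryos of the same time these tissues stood at 0.557% (EEN of TRA), 0.413% (LEN of LEL) and 0.137% (SEC of LEL), with adjusted p of 1.2e-11, 6.17e-12 and 5.36e-13. SEC was lower than LEN (-1.59 ± 0.32 log2, adjusted p = 0.00028), and without LEN replicate 1 the difference was -0.82 (adjusted p = 0.000716). Its order of means was LEM, LEL, TRA, LEE, PEM, TCQ, MAT, EEN, LEN and SEC, in which TCQ and MAT, MAT and EEN, and LEN and SEC were told apart.

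Bradi2g44987.1, placed beside the branch of Arabidopsis PIN3, PIN4 and PIN7, appeared late. The paper names the absence of this branch from Brachypodium as a difference between the species. The gene is therefore not read here as a counterpart of PIN7. PIN7 in Arabidopsis moves auxin from the suspensor into the young embryo. The Brachypodium gene was at its floor of -3.16 log2 CPM in both libraries of TCQ and of TRA. It read -2.67 and -2.58 in PEM and -2.18 and -2.52 in LEE. Up to LEE all libraries were thus below 1 CPM. It then read 0.34 and 1.14 in LEM, 2.43 and 2.27 in LEL, and 2.26 and 1.53 in MAT, all above 1 CPM. The transcript rose 8.51-fold from LEE to LEM (3.09 ± 0.37 log2, adjusted p = 7.55e-06) and 3.05-fold from LEM to LEL (1.61 ± 0.37 log2, adjusted p = 0.00306), and both calls were kept in all alternatives.

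The endosperm showed a similar late level of this gene. Bradi2g44987.1 read -1.32 and -2.50 log2 CPM in EEN, 2.21 and 2.75 in LEN, and -1.94 and -2.01 in SEC. LEN overlapped with LEL, and EEN and SEC were both below 1 CPM. It rose 21.0-fold from EEN to LEN (4.39 ± 0.37 log2, adjusted p = 6.32e-08), while LEN and LEL differed by 0.12 ± 0.37 log2 (adjusted p = 0.776). SEC was 20.1-fold lower than LEL (-4.33 ± 0.37 log2, adjusted p = 3.14e-08) and 22.0-fold lower than LEN (-4.46 ± 0.37 log2, adjusted p = 2.09e-08). EEN passed as higher than TRA (adjusted p = 0.00717), with TRA at the floor and EEN below 1 CPM. This call was lost without EEN replicate 1 (adjusted p = 0.136) and with log2(CPM + 1) (adjusted p = 0.338). In the order LEN, LEL, MAT, LEM, EEN, SEC, LEE, PEM, TCQ and TRA, MAT and LEM, and LEM and EEN were told apart as neighbours.

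Bradi2g52640.1, alone at the base of the PIN side of the tree, had its highest level in the first stage. It read 5.76 and 5.83 log2 CPM in TCQ, 4.60 and 4.56 in PEM, 2.96 and 2.80 in TRA, and 0.95 and 0.51 in LEE. It then stood at 2.39 and 2.28 in LEM, 2.62 and 2.53 in LEL, and 2.08 and 1.59 in MAT. The libraries of TCQ, PEM, TRA and LEE did not overlap with each other, and the LEE libraries were the lowest of the embryo. It fell from PEM to TRA (-1.70 ± 0.50 log2, adjusted p = 0.0191), fell 4.44-fold from TRA to LEE (-2.15 ± 0.50 log2, adjusted p = 0.00681) and rose 3.05-fold from LEE to LEM (1.61 ± 0.50 log2, adjusted p = 0.0139). The first step, from TCQ to PEM, was -1.22 ± 0.50 log2 and did not pass (adjusted p = 0.0514). The error of 0.50 is shared by all groups of the gene. Its libraries had an SD of 1.72 in LEN, against 0.06 in TCQ and 0.03 in PEM.

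Each of the called steps of Bradi2g52640.1 was lost without some library, where the group is left with 1 library whose spread is taken to be that of the other groups. From PEM to TRA this held for each of the 4 libraries (-1.62 to -1.77 log2, adjusted p from 0.0701 to 0.0933). From TRA to LEE it held for LEE replicate 2 (-1.93, adjusted p = 0.0568). From LEE to LEM it held for LEE replicate 2 (1.39, adjusted p = 0.0958) and LEM replicate 1 (1.55, adjusted p = 0.0563).

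Outside the embryo Bradi2g52640.1 was below 1 CPM. It read -0.81 and -0.29 log2 CPM in EEN and -3.17 and -0.73 in LEN, and both SEC libraries were at the floor of -3.17, which LEN replicate 1 shared. EEN was 10.8-fold lower than TRA (-3.43 ± 0.50 log2, adjusted p = 1.62e-05) and LEN 23.0-fold lower than LEL (-4.52 ± 0.50 log2, adjusted p = 7.21e-07). LEN passed as lower than EEN (-1.40 ± 0.50 log2, adjusted p = 0.0235), which rested on LEN replicate 1, as the difference was -0.18 without it (adjusted p = 0.599) and -2.62 without LEN replicate 2. It was also lost without EEN replicate 2 (-1.14, adjusted p = 0.132). In the order TCQ, PEM, TRA, LEL, LEM, MAT, LEE, EEN, LEN and SEC, the neighbours told apart were PEM and TRA, LEE and EEN, EEN and LEN, and LEN and SEC. The call between LEN and SEC was lost without LEN replicate 2, where both were at the floor, and, at an unmoved -1.22 log2, without either SEC library (adjusted p = 0.0984 and 0.0985).

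Bradi2g48170.1, which groups with PIN8, was a seed coat transcript in these data. PIN8 of Arabidopsis acts in pollen, inside the cell. In the 14 embryo libraries the Brachypodium gene ranged from its floor of -3.10 to -0.77 log2 CPM, all below 1 CPM, and in SEC it read 2.54 and 2.70. It read -3.10 and -1.99 in EEN, and both LEN libraries were at the floor. Because the gene entered the tests through its 2 SEC libraries alone, the high level in SEC is given as a description, without a test. Within the embryo 3 steps passed below 1 CPM, a fall from PEM to TRA (-1.65 ± 0.36 log2, adjusted p = 0.00301), a rise from LEM to LEL (1.12 ± 0.36 log2, adjusted p = 0.0229) and a fall from LEL to MAT (-1.74 ± 0.36 log2, adjusted p = 0.000789). TRA replicate 1 and MAT replicate 1 were at the floor, so the size of both falls is no measure of a fold. The rise was lost without either LEM library (1.14, adjusted p = 0.0762, without replicate 1, and 1.10, adjusted p = 0.0829, without replicate 2) and without LEL replicate 2 (0.79, adjusted p = 0.196). In the order of means LEL came next after SEC, and no neighbours below SEC were told apart.

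Among the PILS genes, Bradi2g61980.4, which groups with PILS2, was present in all 20 libraries. It read 5.74 and 5.68 log2 CPM in TCQ, 5.24 and 5.32 in PEM, 5.07 and 5.16 in TRA, and 5.16 and 4.92 in LEE. In LEM it read 5.57 and 5.40, in LEL 5.14 and 5.28, and in MAT 6.08 and 6.01. Its stage means spanned 1.01 log2, against 2.02 for PIN1b and 2.56 for PIN1a. The MAT libraries were the highest of the embryo, and the TCQ libraries the next highest.

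Of the steps of Bradi2g61980.4, 4 passed, each under 2-fold. It fell from TCQ to PEM (-0.42 ± 0.10 log2, adjusted p = 0.00219), rose from LEE to LEM (0.44 ± 0.10 log2, adjusted p = 0.00168) and rose 1.79-fold from LEL to MAT (0.84 ± 0.10 log2, adjusted p = 4.67e-06). A fall from LEM to LEL (-0.28 ± 0.10 log2, adjusted p = 0.0405) was lost without LEM replicate 1 (-0.19, adjusted p = 0.255), without LEL replicate 1 (-0.21, adjusted p = 0.218) and, with an unmoved value and adjusted p from 0.0504 to 0.0505, without each single library of PEM or TRA.

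Bradi2g61980.4 was higher in each other tissue than in embryos of the same time. It read 5.96 and 6.07 log2 CPM in EEN, 5.88 and 5.76 in LEN, and 7.32 and 7.44 in SEC. Both SEC libraries exceeded all other libraries. EEN was 1.86-fold above TRA (0.90 ± 0.10 log2, adjusted p = 8.45e-07), LEN 1.53-fold above LEL (0.61 ± 0.10 log2, adjusted p = 4.41e-05) and SEC 4.50-fold above LEL (2.17 ± 0.10 log2, adjusted p = 1.88e-11). In the order SEC, MAT, EEN, LEN, TCQ, LEM, PEM, LEL, TRA and LEE, only SEC and MAT were told apart as neighbours.

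Bradi1g76490.5, on the PILS side with Arabidopsis PILS5, was highest in mature embryos and late endosperm. PILS5 of Arabidopsis raises the auxin held inside cells. The Brachypodium gene read 1.04 and 1.05 log2 CPM in TCQ, 1.79 and 1.57 in PEM, 1.84 and 1.54 in TRA, and 1.56 and 1.41 in LEE. It then read 0.84 and -3.43 in LEM, 3.23 and 3.09 in LEL, and 5.60 and 5.29 in MAT. The LEL and MAT libraries were above all earlier ones, and the LEM libraries were far apart. In EEN it read 1.56 and -4.42, in LEN 4.89 and 5.22, and in SEC -1.11 and -3.27.

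Because the libraries of LEM, EEN and SEC split so widely, the error of each difference of Bradi1g76490.5 was 1.42 log2. From LEM to LEL it rose by 4.45 log2 (adjusted p = 0.0225). This was lost without LEM replicate 2 (2.32, adjusted p = 0.272) and, at nearly the same size, without either LEL library (4.38 and 4.52, adjusted p = 0.0831 and 0.0789) and with robust variance moderation (4.45, adjusted p = 0.0623). The step from LEL to MAT, 2.28 log2, did not pass (adjusted p = 0.197). LEN exceeded EEN by 6.49 log2 (adjusted p = 0.000963), by 3.50 without EEN replicate 2 (adjusted p = 0.0173). SEC was lower than both other groups of its time, with SEC minus LEL at -5.35 log2 (adjusted p = 0.00297) and SEC minus LEN at -7.25 log2 (adjusted p = 0.000247). No neighbours were told apart in the order MAT, LEN, LEL, TRA, PEM, LEE, TCQ, LEM, EEN and SEC.

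Bradi4g37450.3, placed near Arabidopsis PILS5 and PILS7, was above 1 CPM in the seed coat alone, where it read 2.29 and 2.48 log2 CPM. Its embryo libraries ranged from the floor of -2.99 to -1.50, and both libraries of LEL, of EEN and of LEN were at the floor. This gene too entered the tests through its 2 SEC libraries alone, so that its level there is a description, and no step between embryo stages passed. In the order of means TCQ came next after SEC, and no neighbours below SEC were told apart.

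Bradi2g48170.1 and Bradi4g37450.3 thus shared their high level in SEC. Their Pearson r was 0.88 over 20 libraries and -0.07 over the 14 embryo libraries, a description that rests on the SEC libraries. PIN1a and PIN1b had an r of 0.64 over all libraries and 0.53 over the embryo libraries.

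Step by step through the embryo, the calls came to a few genes each. From TCQ to PEM 3 changed (53.3% of all genes did), of which 2 rose (28.7%) and 1 fell (24.6%), with a median change of 0.57 log2 over the 9 genes and 0.05 over all genes. From PEM to TRA 3 changed (29.3% of all genes), each of them downward (15.9%), and from TRA to LEE 1 did (21.9%), again downward (10.7%). From LEE to LEM 4 changed (51.9% of all genes), each of them upward (25.0%), with medians of 0.44 and -0.04 log2. From LEM to LEL 4 changed (37.1% of all genes), of which 3 rose (18.4%) and 1 fell (18.7%). From LEL to MAT 5 changed (52.5% of all genes), of which 1 rose (24.7%) and 4 fell (27.9%), with medians of -0.49 and -0.01 log2. The counts for PEM to TRA, LEM to LEL and LEL to MAT each include Bradi2g48170.1, which was below 1 CPM in all embryo libraries. The count from PEM to TRA dropped to 1 without any one library of PEM or TRA, and that from LEM to LEL to 2 without any one library of LEM or LEL. Without LEE replicate 2, the count from TRA to LEE was 0 and that from LEE to LEM was 2. Without either LEN library 5 genes were called from TCQ to PEM, and without either EEN library 2 from TRA to LEE.

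**Figure D3:**
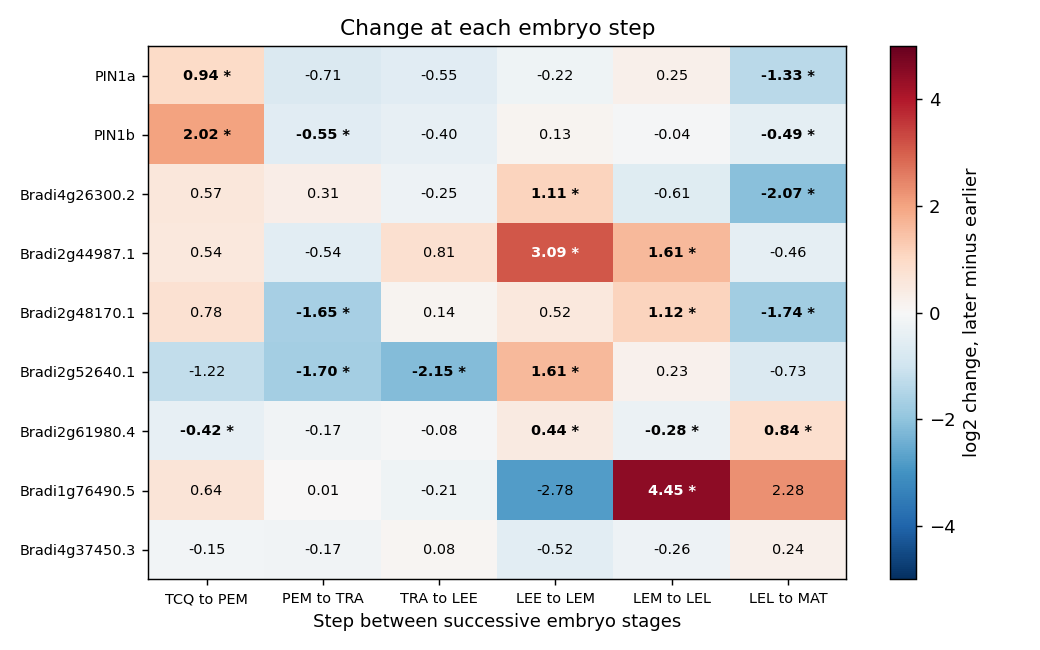
Log2 change of the 9 genes at each step between successive analysed embryo stages, later minus earlier (red, higher, and blue, lower). LEE to LEM spans a stage of the study that is not in these data. Bold values with a star passed at an adjusted p below 0.05 in limma. Bradi2g44987.1 is at its floor in TCQ and TRA, and Bradi4g37450.3 in LEL. PIN1b rose by 2.02 from TCQ to PEM, and PIN1a, PIN1b, Bradi4g26300.2 and Bradi2g48170.1 fell from LEL to MAT.

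Over the whole course, the mean of LEM, LEL and MAT was compared with that of the 4 earlier stages. Of the 9 genes 5 differed (83.1% of all genes), of which 2 were higher in the late embryos (40.6%) and 3 lower (42.6%), with a median of 0.13 log2 and of -0.05 over all genes. Bradi2g44987.1, at its floor in TCQ and TRA (4.49 ± 0.20 log2, adjusted p = 7.9e-12), and Bradi2g61980.4 (0.29 ± 0.05 log2, adjusted p = 0.000108) were higher. PIN1a was 2.04-fold lower (-1.03 ± 0.16 log2, adjusted p = 1.82e-05), Bradi2g52640.1 2.37-fold lower (-1.25 ± 0.27 log2, adjusted p = 0.000507), and Bradi4g37450.3 was lower below 1 CPM (adjusted p = 0.00306). LEM replicate 2, both LEL libraries and MAT replicate 2 of Bradi4g37450.3 were at its floor. This gene did not pass the F-test among the 7 stages (adjusted p = 0.0722, limma). PIN1b differed by -0.13 ± 0.09 log2 and did not pass (adjusted p = 0.206).

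Against embryos of the same time, PIN1a, PIN1b, Bradi4g26300.2 and Bradi2g52640.1 were lower in both EEN and LEN, and Bradi2g61980.4 was higher in both. Between EEN and TRA 6 differed (71.4% of all genes), of which 2 were higher in EEN (34.8%) and 4 lower (36.6%), with a median of -3.12 log2 over the 9 genes and of -0.04 over all genes. The 2 higher in EEN include Bradi2g44987.1, with TRA at its floor and EEN below 1 CPM, a call lost with log2(CPM + 1). The median of -3.12 is the value of Bradi1g76490.5, which did not pass and whose EEN libraries read 1.56 and -4.42 log2 CPM. Between LEN and LEL 6 differed (73.9% of all genes), of which 1 was higher in LEN (36.7%) and 5 lower (37.2%), with medians of -1.15 and 0.00 log2. The 5 lower in LEN include Bradi2g48170.1, which was below 1 CPM in both groups and at its floor in both LEN libraries. From EEN to LEN 4 changed (62.1% of all genes). PIN1a, Bradi2g44987.1 and Bradi1g76490.5 were the 3 that rose (31.3%) and Bradi2g52640.1 the 1 that fell (30.9%). Between SEC and LEL all 9 differed (76.7% of all genes), of which 3 were higher in SEC (37.4%) and 6 lower (39.3%), with medians of -4.33 and -0.02 log2. Without Bradi2g48170.1 and Bradi4g37450.3, which passed the filter through SEC alone, 1 of 7 was higher and 6 were lower. Between SEC and LEN all 9 differed as well (76.0% of all genes). The 4 higher in SEC (34.6%) were PIN1b, Bradi2g48170.1, Bradi2g61980.4 and Bradi4g37450.3, and 5 were lower (41.5%). The latter count includes Bradi2g52640.1, whose call was lost without LEN replicate 2 or either SEC replicate (8 genes called in all). Of the 7 genes that did not depend on SEC for the filter, 2 were higher and 5 lower in SEC than in LEN.

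**Figure D4:**
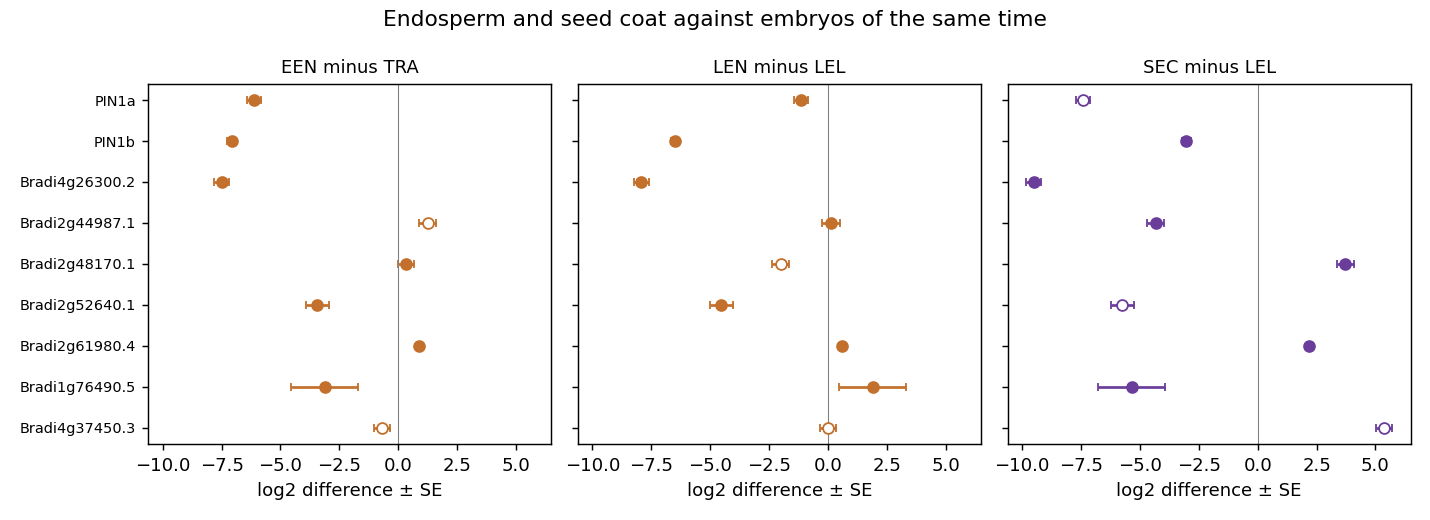
Log2 difference of each gene between a tissue and embryos of the same time (point, with its SE from limma), for early endosperm (EEN minus TRA), late endosperm (LEN minus LEL) and seed coat (SEC minus LEL). Open points mark differences in which both libraries of one group are at the gene's floor, so that their size is no measure of a fold. PIN1a stood at -6.12 in EEN and at -1.15 in LEN, and PIN1b at -7.08 and -6.49.

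Of 6 other genes of auxin synthesis, vascular and root pole formation, 5 rose from TCQ to PEM (28.7% of all genes), as PIN1a and PIN1b did. They were YUC3, an enzyme of auxin synthesis (1.27 ± 0.28 log2), SHR, a regulator of root tissue (1.18 ± 0.21), LOG4 (1.08 ± 0.30), WOX5 of the quiescent centre (1.97 ± 0.30) and PLT1 of the root stem cells (1.79 ± 0.16), with adjusted p from 3.66e-07 to 0.00742 in limma. WOL changed by 0.56 ± 0.23 (adjusted p = 0.0507). All 6 were lower in the late than in the early embryos (42.6% of all genes), with a median of -1.71 log2, and all 6 were lower in EEN than in TRA (36.6%). In LEN 5 were lower than in LEL (37.2%) and 1, LOG4, was higher (36.7%). In SEC 4 were lower than in LEL (39.3%), while YUC3 (0.38 ± 0.28 log2, adjusted p = 0.233) and LOG4 (0.68 ± 0.30, adjusted p = 0.0527) did not pass. These genes were known from earlier results of the same libraries and are no independent evidence.

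Within the embryo, levels of PIN1a ran along with YUC3 (r = 0.86), SHR (0.86) and WOX5 (0.87) more closely than with PLT1 (0.39) over the 14 libraries. For PIN1b the values were 0.56, 0.53, 0.36 and 0.74 in the same order. Libraries of a stage share their source, so these values describe the libraries and were not tested. Over all 20 libraries and 22901 other genes, the profiles most like PIN1a were those of Bradi1g72890.2 (r = 0.97) and Bradi1g66880.1 (0.97), and those most like PIN1b were Bradi2g39790.2 (0.98) and Bradi5g22090.2 (0.98).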

How the data were processed

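RNA-seq libraries came from hand-dissected embryos, endosperm and seed coat of Bd21, 2 in each of 10 groups, which the study calls biological replicates of pooled material. The authors amplified the mRNA of all stages to antisense RNA, cleaned the reads (CASAVA and Trimmomatic are listed in the submitters' processing notes) and counted them with Salmon against 1 gene model per locus of the JGI annotation. The deposited values are log2 CPM, normalised by the authors, for 23749 genes in 20 libraries. The depth of each library, and with it the counting precision, is unknown. The antilogs of a library's values added up to 739963 at the least and 1084752 at the most. Amplification can widen the spread of low values.

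The values were tested as deposited with limma 3.58.1 in R 4.3.3, in place of the authors' edgeR test, which needs counts. One fit held a mean for each of 10 groups with a variance trend (10 residual and 4.82 prior degrees of freedom). The error of a gene is thus shared by all its groups, also where 1 group is wider than the rest. A gene entered the tests if it varied and exceeded 0 log2 CPM in 2 or more libraries, which 22902 did and 847 did not, among them all 9 PIN and PILS genes. P-values were adjusted by Benjamini-Hochberg over all tested genes within each of 13 contrasts and called at 0.05, and every adjusted p in the text is limma's. For the order of levels, all 45 pairs of groups were tested in the same way. A value counts as the floor where at least 2 libraries share the lowest value of a gene (within 1e-06), so that a lowest value found in 1 library may also be a floor. The difference of PIN1a and PIN1b was tested by exact permutation over libraries. The limma fit was tested on simulated data, with changes planted only in genes of higher mean level and without a floor. That simulation does not cover genes at their floor.

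Alternatives were no or a stricter filter (above 1 log2 CPM in at least 4 libraries), log2(CPM + 1), library medians set equal, no variance trend, robust moderation, a replicate block, and leaving out each library. After the data were examined, 1 contrast was added, the change in endosperm minus that in embryos, and 1 alternative, the permutation test with stage means as units. The genes, the lists and the tests were chosen with earlier results of these data known. All 9 PIN and PILS genes are named. For PIN1a and PIN1b the 2 genes with the most alike profiles are named in addition, and 6 other genes stand for the pathway, because a reference table of 31335 genes matched 0 identifiers and gave no descriptions. Placement in the PIN or PILS family follows the gene tree of the study. The endosperm and seed coat genes were also known from earlier results. Whether the pools came from separate plantings is not stated in the study. Other embryo stages of the study were not analysed here.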

Additional observations from a re-analysis of the deposited data

Results flagged for a closer look

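For 3 of the 9 genes, against 62.5% of all genes tested, the change between the 2 times differed between endosperm and embryo, by the interaction contrast that was added after the data were examined (change from EEN to LEN minus change from TRA to LEL, limma). For PIN1a the difference of changes was 4.97 ± 0.41 log2 (SE, adjusted p = 8.79e-08), from a change of 4.45 in endosperm and of -0.52 in embryos, with both LEN libraries above both EEN libraries. For Bradi2g48170.1 it was -2.33 ± 0.51 log2 (adjusted p = 0.000987), from -0.55 in endosperm and 1.77 in embryos. All of its values in these groups were below 1 CPM and both LEN libraries were at the floor, so the size is no measure of a fold.

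For Bradi1g76490.5 the difference was 5.02 ± 2.01 log2 (adjusted p = 0.0406), from 6.49 in endosperm and 1.47 in embryos. Its EEN libraries read 1.56 and -4.42 log2 CPM. Without EEN replicate 2 the difference was 2.03 (adjusted p = 0.256), and without EEN replicate 1 it was 8.01.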

How the results depend on the processing

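Of 62 calls for the 9 genes over the contrasts, 48 were kept under all 27 alternatives, 14 were lost under at least 1, 7 of these only when a library was left out, and 0 values reversed. With log2(CPM + 1), which shrinks differences of low values by construction, 5 genes were called from TCQ to PEM (3 as deposited) and 2 from TRA to LEE (1 as deposited). Calls lost under settings other than leaving out a library were those of Bradi2g44987.1 (EEN against TRA) and Bradi2g52640.1 (LEN against EEN and SEC against LEN) with log2(CPM + 1), PIN1b (LEL to MAT) with equal library medians, Bradi2g61980.4 (LEM to LEL) without the variance trend, and Bradi1g76490.5 (LEM to LEL with robust moderation, and the interaction with robust moderation or without the trend). The cause was not tested. Equal library medians shifted the differences of all genes by -0.27 (SEC against LEN) to 0.25 log2 (LEL to MAT). The stricter filter left 52 of the calls to recompute and lost 0 of them.

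With each library left out in turn, the genes called ranged from 2 to 5 from TCQ to PEM, 1 to 4 from PEM to TRA, 0 to 2 from TRA to LEE, 2 to 5 from LEE to LEM, 2 to 5 from LEM to LEL, 4 to 6 from LEL to MAT, 5 to 6 for late against early embryos, 6 to 7 for EEN against TRA, 3 to 5 for LEN against EEN, 8 to 9 for SEC against LEN and 2 to 4 for the interaction. For LEN against LEL the count stayed at 6 and for SEC against LEL at 9. The shift of PIN1a minus PIN1b after TCQ ranged from 1.42 to 1.64 log2, and without either TCQ library the exact test could not pass. With stage means as units in place of libraries the shift was 1.53 and the exact p 0.143. The interaction call of Bradi1g76490.5 was lost without any one of 13 libraries.

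The replicate numbers did not meet the criterion for pairing (every correlation above 0.1), though a source shared by some libraries of a number was not tested. Replicate differences correlated between groups from -0.13 to 0.55 (median 0.05, 15 of 45 pairs of groups above 0.1), and a replicate block changed no count and lost 0 of the 62 calls. Depth is unknown, so for genes below 1 CPM an absence cannot be told from a low level.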

Other observations

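In all 7 embryo groups the 4 endosperm genes stood higher in replicate 2 than in replicate 1, by 0.08 to 5.01 log2, at no more than 0.272% of their level in EEN.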
